A study of Mus musculus with 6 samples.

Results

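Interferon response and antigen presentation genes were examined in mouse embryonic stem cells. They were chosen by name, from a list of 35 genes matched to the gene symbols of the array's probe sets, and 34 of the 35 could be measured among 18193 genes in all. The remaining gene, Isg15, has a single probe set, which is shared with another gene symbol, and was given no value. A gene with several probe sets was represented by the brightest, that with the highest mean over all arrays. In total 60 probe sets read the members, and 15 members had more than 1.

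The 6 arrays (Affymetrix mouse expression arrays) held 3 cultures of wild-type cells and 3 of cells carrying the C-terminally truncated form of Dido3, Dido3deltaCT, a product of the gene Dido1. All were kept in medium with leukemia inhibitory factor, which maintains self-renewal, and per the labels the arrays of a group were biological replicates. The labels do not say how many cell lines a group holds, and for 1 line per group the p-values measure only the spread between cultures. Values are log2 expression as deposited, differences are truncated minus wild type, and a gene passed when its limma p was under 0.05 after Benjamini-Hochberg adjustment across the 18193 genes.

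Type I interferon binds a receptor made of IFNAR1 and IFNAR2, whose kinases activate transcription factors, STAT2 among them. With IRF9 these bind interferon-stimulated response elements, which switches on antiviral effectors and raises the machinery that cuts, transports and displays peptides on MHC class I. Type II interferon acts through gamma-activated sites, and IRF1 is a well-known target of that arm. Pluripotent stem cells are known for a weak response to interferon and for little MHC class I at the surface.

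Stretches of DNA before the start of 6 members are shown because these genes carry the largest differences between groups, or between arrays, or stand for the effectors with low values. They come from the RefSeq promoter table of GRCm38.p6 and lie on the plus strand, 5′ to 3′, ending at the last base before the start. Capitals mark the fixed bases of 2 motifs. The first is the GAAA repeat that interferon regulatory factors bind, spelled GAAANNGAAA or TTTCNNTTTC according to the strand. The other is the gamma-activated site TTCNNNGAA, which reads the same on both strands. Matches of either motif may overlap.
Irf1 (chr11:53769864-53770013): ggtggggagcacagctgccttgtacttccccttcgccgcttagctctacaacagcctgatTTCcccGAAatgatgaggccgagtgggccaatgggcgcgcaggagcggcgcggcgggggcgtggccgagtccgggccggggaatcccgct
Ifnar2 (chr16:91372563-91372782): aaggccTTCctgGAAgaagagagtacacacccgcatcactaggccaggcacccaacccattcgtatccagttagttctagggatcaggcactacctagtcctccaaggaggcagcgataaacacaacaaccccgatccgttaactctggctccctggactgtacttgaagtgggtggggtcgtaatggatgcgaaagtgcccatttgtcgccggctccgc
Ifi35 (chr11:101448262-101448411): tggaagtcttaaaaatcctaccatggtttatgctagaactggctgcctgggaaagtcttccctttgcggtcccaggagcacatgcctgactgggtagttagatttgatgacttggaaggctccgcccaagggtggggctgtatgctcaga
Gbp2 (chr3:142620513-142620662): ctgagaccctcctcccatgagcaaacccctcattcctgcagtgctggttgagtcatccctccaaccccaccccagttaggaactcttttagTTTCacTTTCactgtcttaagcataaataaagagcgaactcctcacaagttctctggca
Ifit1 (chr19:34640739-34640888): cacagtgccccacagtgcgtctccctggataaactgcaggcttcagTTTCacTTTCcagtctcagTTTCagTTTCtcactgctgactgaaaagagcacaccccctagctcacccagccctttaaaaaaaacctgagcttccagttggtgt
B2m (chr2:122147537-122147686): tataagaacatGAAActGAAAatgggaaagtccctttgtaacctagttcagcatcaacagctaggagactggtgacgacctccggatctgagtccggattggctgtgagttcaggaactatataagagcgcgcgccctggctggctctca

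Of the 35 listed genes, 29 had a promoter window in the RefSeq table, in 35 windows. Within the 250 bases before the start, the GAAA repeat was found for 11 of the 29 genes: B2m, Bst2, Cxcl10, Gbp2, Gbp3, Ifit1, Ifit3, Irf2, Isg15, Rsad2 and Stat2. That is 31.4% of the member windows, against 2.98% of all 32851 windows of this length (978 windows). The gamma-activated site was found for 7 genes, Bst2, Eif2ak2, Ifit2, Ifnar2, Irf1, Irf2 and Psmb8. It was in 20% of the member windows, against 7.02% of all windows. The site of Irf1 starts 90 bases and that of Ifnar2 214 bases before the start, while the window of Ifi35 held neither motif. A match describes the letters only and is not evidence of binding.

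Most antiviral effectors had means at or below the median of all probe sets in both groups. Ifnar2 and Irf1 fell in the truncated cells, 0 members rose and the others did not pass. The 2 falls among 34 members stand beside 4.67% of all genes that passed in either direction and 1.97% that fell. They describe single genes and not the members as a set. The median difference of the 34 members was −0.10, against 0.01 over all genes. Values were lower in the truncated cells for 21 members (61.8%, beside 48.2% of all genes) and higher for 13. Most of these differences were small, with a median size of 0.15 (0.13 over all genes). The groups did not overlap for 10 members (8 lower, 2 higher) or 29.4%, beside 22.4% of all genes. Taken as expressed were genes whose mean exceeded 4.82, the median of all probe sets (the limit). Of the members 19 did so and 15 did not, and of all genes 11728 did so and 6465 did not. Among expressed members the groups did not overlap for 4 of 19 (21.1%), beside 28.8% of all expressed genes.

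**Figure D1:**
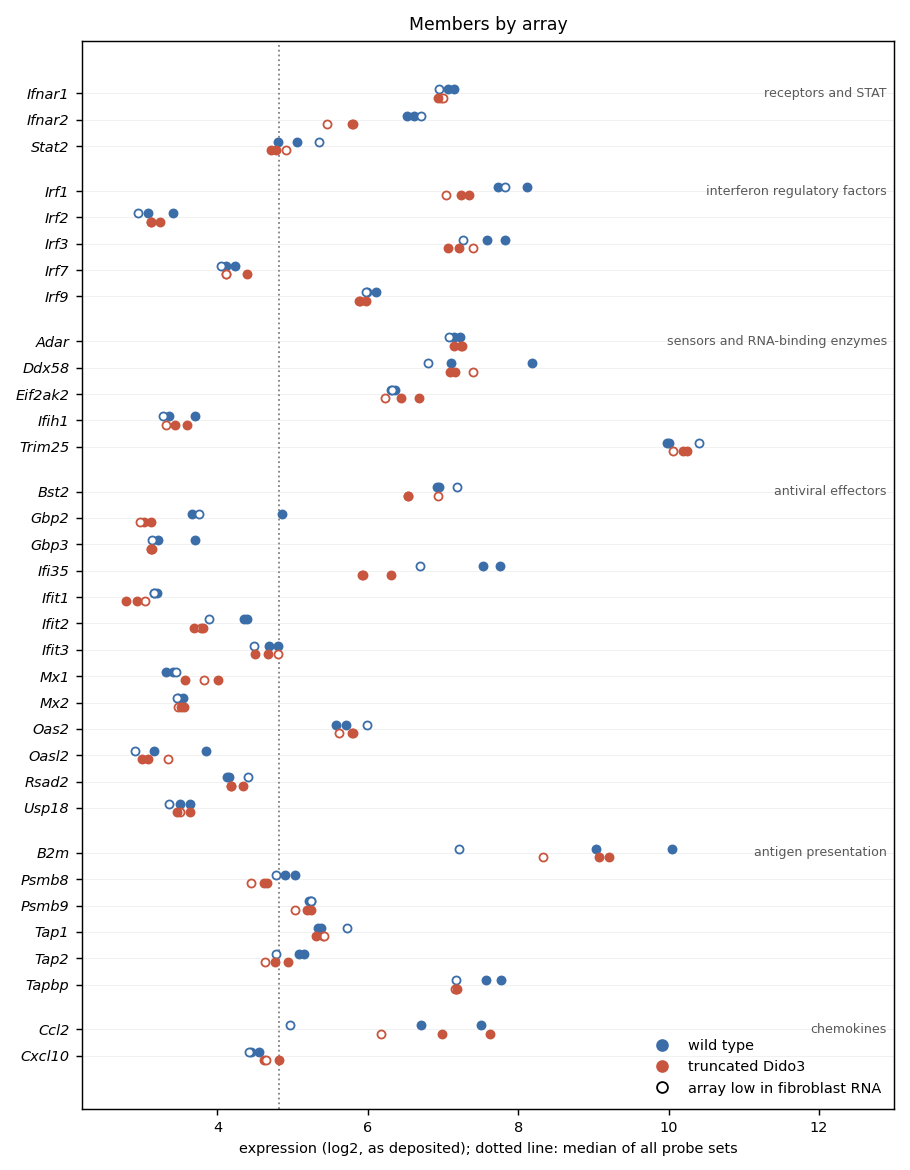
Expression (log2, x axis) of the 34 measured members on each of the 6 arrays, grouped by role. Blue points are wild type and red points truncated cells, open points are the arrays low in fibroblast RNA (wild-type replicate 3 and truncated replicate 2), and the dotted line is the median of all probe sets (4.82). Of 13 antiviral effectors, 10 have a mean left of the line; the groups of Ifnar2, Irf1 and Ifi35 do not overlap, and the open points of B2m and Ccl2 lie left of the filled ones of their group.

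The labelled cell type was checked against its markers. All 9 measured stem cell markers, among them Pou5f1, Nanog and Sox2, were above the limit on every array, with a mean of 11.1 to 11.3. Arrays also differed in fibroblast RNA, such as feeder cells would carry: the mean of 24 fibroblast markers was 8.35, 8.12 and 5.38 on wild-type replicates 1, 2 and 3, and 7.75, 6.47 and 7.77 on the truncated replicates. Wild-type replicate 3 and truncated replicate 2 were thus low, with 14 and 19 of the 24 markers above the limit against 22 on each other array. The group means were 7.28 ± 1.65 and 7.33 ± 0.75 (SD, n = 3 each; exact permutation p = 1, two-sided, where 0.1 is the smallest possible). The same pair was high in poly-A spike-in controls, at 12.1 and 12.5 against 6.12 to 7.85 on the other arrays. The mean of 10 macrophage and other leukocyte markers was 5.07 to 5.59 on wild-type and 5.08 to 5.42 on truncated arrays, with 5 to 7 of the 10 above the limit per array. Of this list Ptprc (CD45), Itgam and Tyrobp were below the limit on all 6 arrays. Laptm5 (7.71 to 9.31), Csf1r, Cd68, Fcer1g and Lyz2 were above it on all 6, and Cd14 and Adgre1 on some. In a culture, fewer cells of a type and less RNA per cell cannot be told apart. As a check of the labels, the probe set of Dido1 with the highest mean fell from 8.38 ± 0.19 to 6.88 ± 0.35, and 1437647_at from 5.62 ± 0.10 to 4.15 ± 0.03, while 1437182_at was higher without passing (7.14 ± 0.26 and 7.82 ± 0.15). The remaining Dido1 probe sets, 1431258_at and 1444744_at, overlapped between groups and differed by 0.05 and 0.03. Where these probe sets lie relative to the truncation was not analysed here. The Y-linked gene Eif2s3y had a level of 8.58 ± 0.14 in the wild-type and 3.68 ± 0.23 in the truncated group, so a difference in Y-linked RNA and the truncation cannot be told apart in these groups.

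The receptor chain Ifnar2 fell in the truncated cells, while its partner Ifnar1 and the downstream factor Stat2 did not pass. Ifnar2 (probe set 1451462_a_at) was at 6.52, 6.62 and 6.71 in wild-type replicates 1 to 3 and at 5.79, 5.45 and 5.80 in the truncated replicates. All truncated values lay below all wild-type values. The difference was −0.93 (SE 0.12), 1.91-fold lower (limma adjusted p = 0.012; 0.00355 to 0.861 over the alternatives). It was −0.77 in the 4 arrays high in fibroblast RNA and −1.26 in the pair low in it. The other probe sets of Ifnar2 were not lower in this way. The values of 1427691_a_at were 5.31 ± 0.06 and 5.26 ± 0.09 (SD, n = 3 each), and those of 1440169_x_at, below the limit, were 2.98 ± 0.17 and 3.39 ± 0.09, higher in every truncated array. Over the mean of all 3 probe sets the difference was −0.19 (limma adjusted p = 0.225). The call was also lost without wild-type replicate 2 (−0.93, adjusted p = 0.0642), truncated replicate 1 (−0.99, 0.0641) or truncated replicate 3 (−0.99, 0.0538). Ifnar1 was at 7.06 ± 0.10 and 6.97 ± 0.04, a difference of −0.09 (SE 0.09; limma adjusted p = 0.71). Stat2, which carries the signal into the nucleus, was at 5.07 ± 0.28 and 4.80 ± 0.10 (−0.27, SE 0.15; limma adjusted p = 0.422). Its second probe set, 1421911_at, was lower in every truncated array (5.01 ± 0.09 and 4.64 ± 0.21). It did not pass either (−0.38, limma adjusted p = 0.205 over all probe sets).

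Among the interferon regulatory factors, transcription factors that act before and after the receptor, Irf1 fell and Irf2, Irf3, Irf7 and Irf9 did not pass. Irf1, an activator of antigen presentation genes, was at 7.73, 8.12 and 7.82 in the wild-type and 7.34, 7.04 and 7.24 in the truncated replicates. The groups did not overlap. The groups differed by −0.68 (SE 0.14), or 1.61-fold (limma adjusted p = 0.0414; 0.0126 to 0.15 over the alternatives). With the replicate number as a block the adjusted p was 0.115. The difference was −0.64 in the 4 arrays high in fibroblast RNA, where it did not pass (adjusted p = 0.0979), and −0.78 in the other pair. Irf1 kept its call without wild-type replicate 3 (adjusted p = 0.0463). It lost the call without wild-type replicate 1 (−0.76, adjusted p = 0.0607) or 2 (−0.57, 0.121), and without truncated replicate 1 (−0.75, 0.121), 2 (−0.60, 0.106) or 3 (−0.70, 0.15).

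Irf9, the DNA-binding partner of the STATs, was at 6.11, 5.99 and 5.98 in wild-type and at 5.98, 5.89 and 5.89 in truncated replicates. The lowest wild-type (5.982) and highest truncated (5.980) values nearly met, and the difference was −0.11 (SE 0.09; limma adjusted p = 0.608). Irf3, which responds to cytosolic nucleic acids, was at 7.56 ± 0.28 and 7.23 ± 0.17 and overlapped (adjusted p = 0.355). Irf7, which amplifies the response, and Irf2, an antagonist of Irf1, lay below the limit in both groups, with differences of 0.08 and 0.01.

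The sensors and RNA-binding enzymes did not pass as represented, but a further probe set of Adar fell. Adar encodes an enzyme that edits double-stranded RNA and restrains its sensors, and is made as a constitutive and an interferon-induced form. Its representing probe set, 1434268_at, differed by 0.06 (SE 0.09; limma adjusted p = 0.824). The probe set 1425405_a_at was at 6.66, 6.21 and 6.42 in wild-type and at 5.64, 5.40 and 5.59 in truncated replicates, with no overlap. The difference was −0.89 (SE 0.14; limma adjusted p = 0.0246 over all 45037 probe sets). Which transcript it reads was not analysed here, and 1439276_at differed by −0.14. Of the 60 probe sets of the members, 2 passed in this fit, beside 2.8% of all probe sets. These were 1425405_a_at and that of Ifnar2, whereas that of Irf1 was at an adjusted p of 0.0512.

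Ddx58, the gene of the RNA sensor RIG-I, was at 8.19, 7.11 and 6.80 in wild-type and at 7.16, 7.40 and 7.10 in truncated replicates. Wild-type replicate 1 stood above the other 5 arrays, and the difference was −0.15 (SE 0.34; limma adjusted p = 0.892). Ifih1, which encodes the related sensor MDA5, was below the limit in both groups. Eif2ak2, the gene of the kinase PKR that halts translation upon binding double-stranded RNA, was at 6.33 ± 0.03 and 6.45 ± 0.23. Its other probe sets differed in sign and did not pass. The values of 1440866_at were higher in every truncated array (5.73 ± 0.18 and 6.01 ± 0.11), and those of 1422005_at overlapped (5.17 ± 0.13 and 4.93 ± 0.32). Trim25, a ubiquitin ligase that activates RIG-I, was at 10.13 ± 0.24 and 10.16 ± 0.10. Another probe set of Trim25, 1426415_a_at, was higher in all truncated arrays (6.75 ± 0.33 and 7.40 ± 0.23) and did not pass (adjusted p = 0.151).

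**Figure D2:**
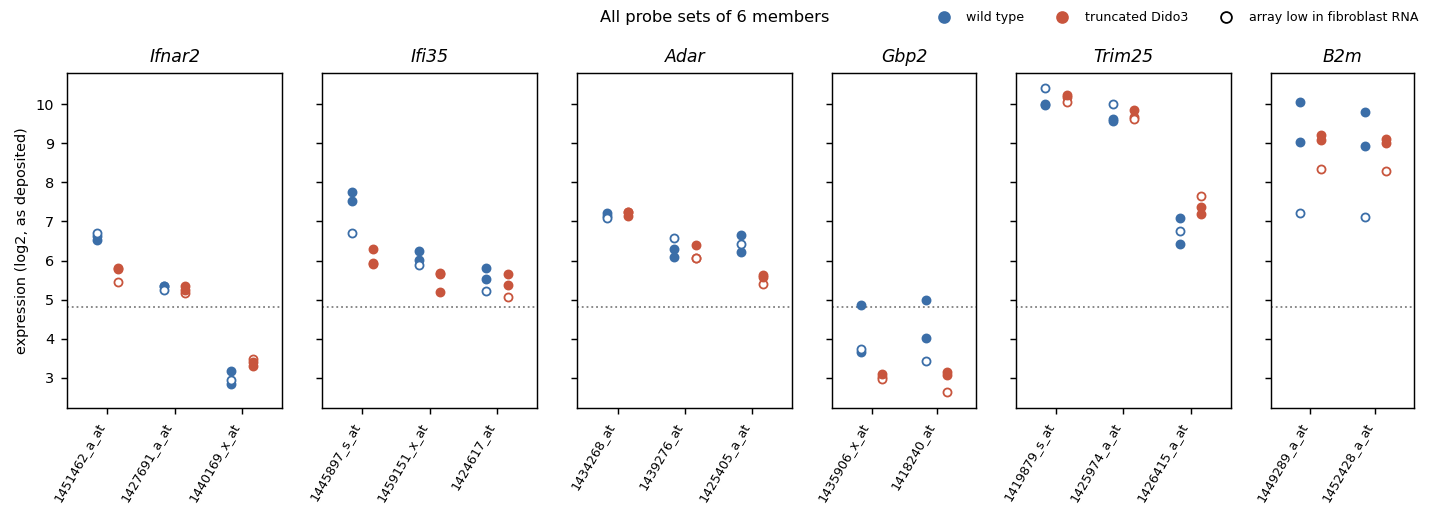
Expression (log2, y axis) of each probe set of Ifnar2, Ifi35, Adar, Gbp2, Trim25 and B2m on the 6 arrays; blue is wild type, red truncated, open points the arrays low in fibroblast RNA, and the dotted line the median of all probe sets. Probe sets of Ifnar2 and Adar differ in whether the groups separate, while the groups are apart on both probe sets of Gbp2 and the open points are the lowest of their group on both of B2m.

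Among the antiviral effectors 0 of 13 passed, beside 4.67% of all genes, a count too small to set them apart. Of the 13, 10 had a mean at or below the limit. These were Ifit1, Ifit2, Ifit3, Usp18, Mx1, Mx2, Oasl2, Rsad2, Gbp2 and Gbp3, with means of 3.04 to 4.66. The lowest mean of any gene was 2.43, and 6465 of 18193 genes were at or below the limit. Ifi35, whose product is bound by the STAT-interacting protein NMI, had the largest difference of all members. It was at 7.53, 7.75 and 6.70 in wild-type and at 6.31, 5.92 and 5.94 in truncated replicates. The groups did not overlap, and wild-type replicate 3, low in fibroblast RNA, lay nearest to the truncated arrays. The difference was −1.27 (SE 0.28) and just missed the threshold (limma adjusted p = 0.0523; 0.00385 to 0.802 over the alternatives). It passed in 8 of 18 alternatives. Among these were the array pair low in fibroblast RNA as a block (adjusted p = 0.0141), the 4 other arrays (−1.52, 0.0248), and leaving out wild-type replicate 3 (−1.59, 0.00475). It did not pass with the replicate number as a block (adjusted p = 0.0566) or when any other array was left out (adjusted p = 0.129 to 0.200). The second probe set of Ifi35, 1459151_x_at, was also lower in every truncated array (6.05 ± 0.18 and 5.51 ± 0.28), while 1424617_at overlapped (5.51 ± 0.29 and 5.37 ± 0.30). The first 2 of these probe sets carry suffixes (_s_at, _x_at) that mark possible cross-hybridisation. With them left out, the difference was −0.14 (limma adjusted p = 0.802).

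Gbp2, an interferon-induced GTPase, was at 3.66, 4.86 and 3.75 in wild-type and at 3.02, 2.96 and 3.11 in truncated replicates. Wild-type replicate 2 was the only array above the limit, and the groups did not overlap. The difference was −1.06 (SE 0.31; limma adjusted p = 0.117). Its other probe set, 1418240_at, was at 4.02, 5.0 and 3.43 and at 3.07, 2.63 and 3.14. Ifit2, of a family that binds foreign RNA, was at 4.35, 4.39 and 3.89 and at 3.69, 3.78 and 3.80. It differed by −0.45 (SE 0.15; limma adjusted p = 0.159), by −0.62 in the 4 arrays high in fibroblast RNA (adjusted p = 0.0401) and by −0.10 in the other pair. Without wild-type replicate 3 it also passed (−0.61, adjusted p = 0.0187). The related Ifit1 was at 3.16, 3.19 and 3.16 and at 2.78, 3.04 and 2.93, and Ifit3 differed by less than 0.01 (−0.0038, SE 0.12).

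The GTPase gene Mx1 went the other way, at 3.32, 3.41 and 3.45 in wild-type and at 3.57, 3.82 and 4.01 in truncated replicates. Its groups did not overlap, but all values lay below the limit (0.41, SE 0.13; limma adjusted p = 0.144). Oasl2, of the 2′-5′ oligoadenylate synthetase family, was at 3.15, 3.85 and 2.91 and at 3.07, 3.34 and 3.0, with wild-type replicate 2 highest. The effectors above the limit other than Ifi35 were Bst2 (tetherin, which holds budding virus at the cell surface) and Oas2. Bst2 was at 7.02 ± 0.15 and 6.67 ± 0.24 (−0.35, SE 0.15; limma adjusted p = 0.266). Oas2 was at 5.76 ± 0.21 and 5.73 ± 0.11.

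The motifs were set beside the levels. Of the 28 measured members with a promoter window, 10 held the repeat and 0 of these passed, and 7 of the 10 were at or below the limit. Of the 18 without it, 5 were at or below the limit and 2, Ifnar2 and Irf1, passed. The windows of those 2 genes held the gamma-activated site, as did those of Bst2, Eif2ak2, Ifit2, Irf2 and Psmb8, none of which passed. Over all genes 4.67% passed, so these counts are too small to set members with a motif apart. They are a description of few genes, with no test.

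**Figure D3:**
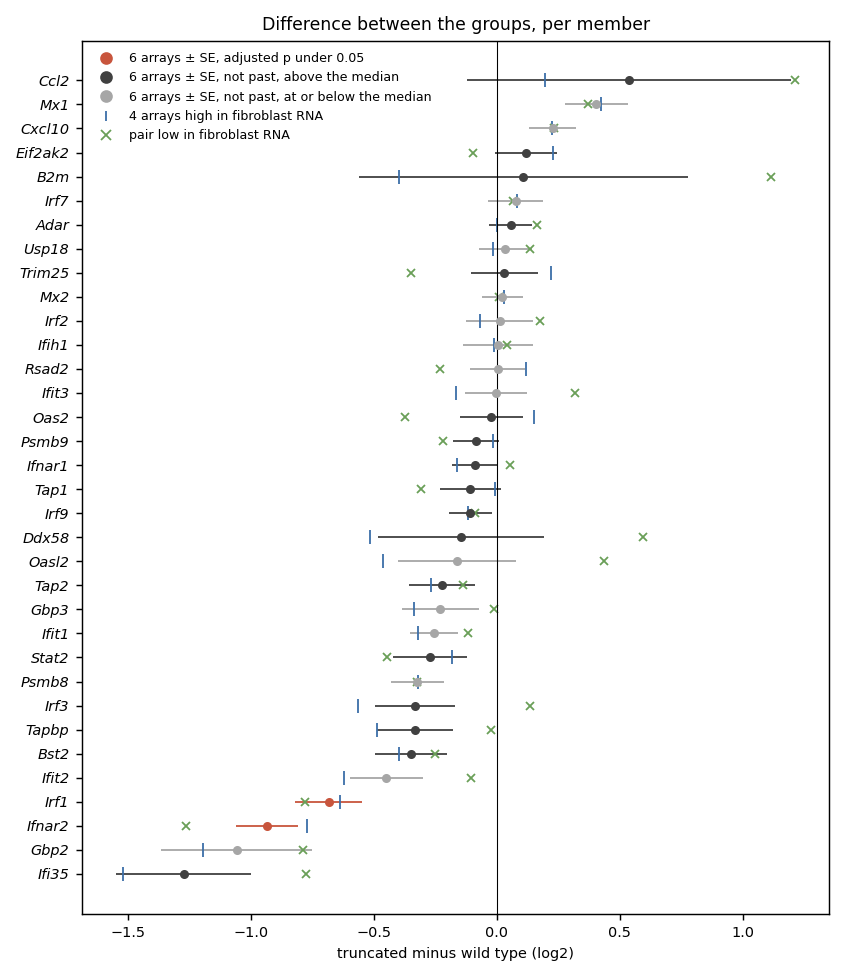
Difference between the groups (truncated minus wild type, log2, x axis) of each member with its SE from limma over 6 arrays; red points passed at an adjusted p under 0.05, dark grey points did not and have a mean above the median of all probe sets, light grey points lie at or below it. Blue bars are the difference in the 4 arrays high in fibroblast RNA and green crosses that in the low pair. Ifi35, Gbp2, Ifnar2 and Irf1 lie lowest with all 3 marks below 0. Bar and cross lie on opposite sides of 0 for B2m, Ddx58, Oasl2, Irf2, Irf3, Ifnar1, Ifit3, Usp18, Oas2, Rsad2, Ifih1, Eif2ak2 and Trim25.

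Antigen presentation genes did not pass (0 of 6, too few to set apart from the 4.67% of all genes that passed). B2m, the light chain of MHC class I, varied more between cultures than between groups. It was at 10.04, 9.03 and 7.22 in wild-type and at 9.07, 8.33 and 9.21 in truncated replicates, a difference of 0.11 (SE 0.67; limma adjusted p = 0.967). The lowest arrays were wild-type replicate 3 and truncated replicate 2, those low in fibroblast RNA. The difference was −0.40 in the 4 other arrays and 1.12 in this pair, so its sign depended on which arrays were compared. The second probe set of B2m, 1452428_a_at, had the same order within each group except that truncated replicate 1 rather than 3 was highest (9.80, 8.94 and 7.11; 9.11, 8.30 and 9.01).

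Tapbp, the gene of tapasin, which loads peptide onto MHC class I, was at 7.57, 7.77 and 7.18 in wild-type and at 7.18, 7.15 and 7.19 in truncated replicates. Wild-type replicate 3 lay within the range of the truncated arrays, and the difference was −0.33 (SE 0.15; limma adjusted p = 0.323). Without that array it was −0.50 (adjusted p = 0.0441). Psmb8, an immunoproteasome subunit, was at 4.90, 5.02 and 4.78 and at 4.62, 4.45 and 4.66, without overlap and close to the limit (−0.32, SE 0.11; limma adjusted p = 0.163). The subunit gene Psmb9 and the peptide transporter genes Tap1 and Tap2 overlapped between groups and differed by −0.08, −0.11 and −0.22.

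The chemokines did not pass either. Ccl2, which attracts monocytes and is made in quantity by fibroblasts, was at 7.5, 6.71 and 4.96 in wild-type and at 7.62, 6.18 and 6.98 in truncated replicates. As for B2m, the lowest array of each group was the one low in fibroblast RNA, and the difference was 0.54 (SE 0.66; limma adjusted p = 0.762). Without wild-type replicate 3 it was −0.18. Cxcl10, a classical interferon target, was at 4.44, 4.55 and 4.42 and at 4.62, 4.65 and 4.82. Its groups did not overlap, but all but the highest value lay below the limit (0.23, SE 0.10; limma adjusted p = 0.278).

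The gap between the array low in fibroblast RNA and the others of its group was then described for each member, with no test because measured RNA set these arrays apart. B2m had a gap of −2.32 in wild-type and −0.81 in truncated cells, and Ccl2 of −2.14 and −1.12. Ccl2 was the only member more than 1 log2 unit lower in both groups, as were 0.374% of all genes. Ifi35 followed with −0.95 and −0.20. Ddx58 (−0.85 and 0.27) and Oasl2 (−0.59 and 0.30) had gaps of opposite sign in the 2 groups. For 28 of 34 members the gap was within 0.5 in both groups, as it was for 14881 of 18193 genes. In both groups 17 members were lower on the low array, or 50%, against 35.9% of all genes. The MHC class I heavy chain genes, from the wider pathway list, had gaps of the same sign as B2m: H2-D1 of −1.37 and −0.45, and H2-K1 of −0.88 and −0.34. The part of feeder RNA in these levels was not tested.

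**Figure D4:**
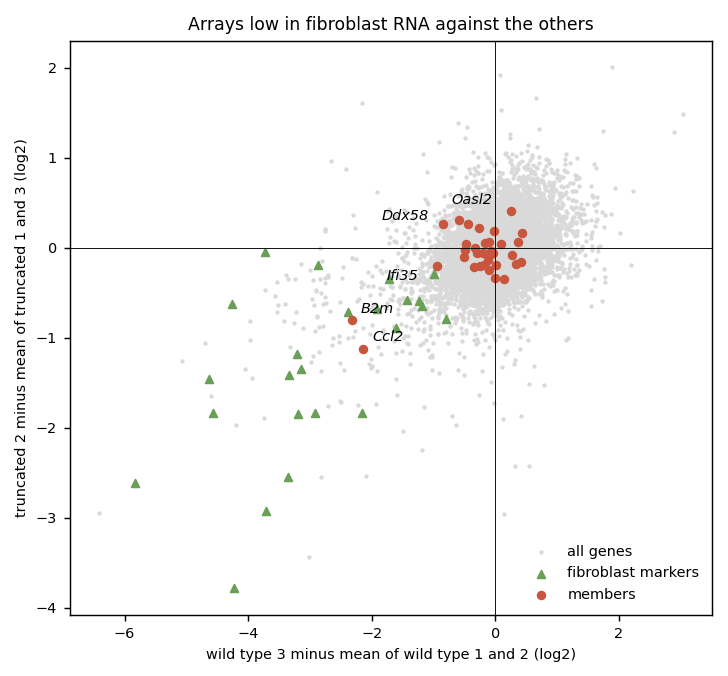
Gap between the array low in fibroblast RNA and the mean of the other 2 arrays of its group, in wild-type (x axis) and truncated cells (y axis), in log2 units; grey points are all genes, green triangles the 24 fibroblast markers and red points the members. B2m (−2.32, −0.81) and Ccl2 (−2.14, −1.12) lie at the lower left, and most other members lie near 0 on both axes.

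With the low pair as a block, 3 members fell (Ifnar2, Irf1 and Ifi35) beside 4.19% of all genes that fell. An interaction term, fitted to ask whether the difference between groups depended on the pair, was called by limma for 0 of 18193 genes (2067 at an unadjusted p under 0.05). For the 3 members the term was −0.49 (Ifnar2), −0.14 (Irf1) and 0.74 (Ifi35). The low pair holds 1 array per group, chosen by measured RNA, so this fit does not show that the difference was alike in both sets of arrays.

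The wider pathway was taken from 6 lists of 105 other genes, of which 92 were measured. Among them 3 genes rose and 2 fell, 5.43% of the 92 beside 4.67% of all genes, and the median difference was 0.02. The share is near that of all genes, so the calls describe single genes and not the pathway. Isg20, an exonuclease, rose from 5.35 ± 0.17 to 6.64 ± 0.11 (SD, n = 3 each; 1.29, limma adjusted p = 0.00394) and kept its call under all 17 alternatives that could be run for it (adjusted p up to 0.0387). Zc3hav1, the zinc-finger antiviral protein, rose from 7.39 ± 0.40 to 8.82 ± 0.29 (1.43, adjusted p = 0.0222), was called in 15 of 18 alternatives (up to 0.112), and differed by 1.76 in the 4 arrays high in fibroblast RNA and by 0.78 in the low pair. Its probe set 1428378_at rose by 0.60 as well (adjusted p = 0.0242 over all probe sets), and 1431909_at, below the limit, differed by 0.13. Oas1a, an oligoadenylate synthetase gene of a family of close copies that a probe set may not tell apart, rose from 8.10 ± 0.21 to 9.20 ± 0.21 (1.10, adjusted p = 0.0132) and was called in 14 of 17 alternatives (up to 0.0723).

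The genes that fell were Ifitm1 and Ifi30. Ifitm1, of a family that blocks viral entry and is also high in early embryonic and germ cells, fell from 11.27 ± 0.36 to 10.06 ± 0.24 (−1.20, limma adjusted p = 0.0270) and was called in 13 of 17 alternatives (up to 0.137). Ifi30, a lysosomal thiol reductase that helps MHC class II presentation, fell from 8.45 ± 0.22 to 7.27 ± 0.17 (−1.18, adjusted p = 0.00959) and was called in 16 of 17 (up to 0.0617). Psmb10, a catalytic subunit of the immunoproteasome, was at 7.14, 7.39 and 6.45 in wild-type and at 5.80, 6.05 and 5.84 in truncated replicates. The groups did not overlap and the difference of −1.10 (SE 0.23) just missed the threshold (limma adjusted p = 0.0502). Xaf1, an interferon-induced gene whose product promotes cell death, missed it as narrowly in the other direction. It was at 6.33, 6.42 and 7.57 in wild-type and at 8.25, 8.13 and 8.39 in truncated replicates, without overlap and with wild-type replicate 3 nearest to the truncated arrays (1.49, SE 0.32; limma adjusted p = 0.0521). H2-K1 and H2-D1 differed by 0.04 and 0.19, with overlap. Psmb10, Xaf1 and the H2 genes were chosen for naming after their values were seen. By list, 0 of 9 receptor, kinase and STAT genes, 0 of 5 genes of the IRF family and 0 of 14 cytokine and chemokine genes passed. Calls were made for 1 of 11 sensors and adaptors, 3 of 35 other effectors and 1 of 18 other antigen presentation genes, counts too small to set a list apart from the 4.67% of all genes.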

How the data were processed

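The authors deposited 1 log2 expression value per probe set for each of 6 Affymetrix arrays. The sources used here do not state the summarising or normalising method, and the range of the values shows the log2 scale. Array medians lay between 4.80 and 4.86, so no further scaling was applied. Of 45101 probe sets, 64 controls were left out; 34945 of the rest had 1 gene symbol in the platform annotation, 932 had several and 9160 had none. Entrez identifiers tied 34741 of the named probe sets to the RefSeq genes of GRCm38.p6, and 0 symbols changed.

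The probe set with the highest mean represented each of 18193 genes. Groups were compared with lmFit and eBayes of limma 3.58.1 (R 4.3.3), group as the only term, two-sided, with Benjamini-Hochberg adjustment over all genes; probe sets were fitted the same way. The number of arrays limits the precision. The fit was tested on simulated data with independent noise for each gene and array. Such data lack the differences in fibroblast RNA between these arrays, so the test does not cover them. Members and lists were chosen with earlier results of these data known. Values on every array are given for members past the threshold in any fit, with groups apart, or among the 5 largest gaps in wild type; other pathway genes are named where they passed, and Psmb10, Xaf1, H2-K1 and H2-D1 were added after their values were seen. Alternatives were the replicate number, the arrays low in fibroblast RNA or their marker mean in the fit, other scalings, filters, weights and priors, other probe sets, the 4 high arrays, and leaving out each array. Plots used matplotlib 3.10.9.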

Additional observations from a re-analysis of the deposited data

How the results depend on the processing

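The count of members that fell was 2. It was 1 with the replicate number as a block and with the mean of all probe sets, 0 with the second probe set, 7 with array weights and 4 with the fibroblast markers as a covariate. With each array left out it ranged from 0 (when wild-type replicate 2, or 1 of the truncated replicates 1 and 3, was left out) to 5 (without wild-type replicate 3). With array weights Ifnar2, Irf1, Ifi35, Gbp2, Ifit2, Tapbp and Psmb8 passed. The count of members that rose was 0 under all 18 alternatives. Over all genes, 850 passed, and 466, 248, 2057, 1569 and 1979 did with the replicate block, the second probe set, array weights, the low pair as a block and the covariate; without 1 array the count ran from 129 to 1191. The replicate numbers did not pair the arrays: deviations from the group means correlated at 0.365, −0.414 and −0.149 for numbers 1, 2 and 3. Under the block Ifnar2 passed (adjusted p = 0.038) and Irf1 did not (0.115), and no other member changed its call.

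Signs turned in 48 of the fits over 17 members, 0 of them a called member. With the 4 arrays high in fibroblast RNA the differences were −0.40 for B2m, −0.013 for Ifih1, −0.070 for Irf2, 0.15 for Oas2 and −0.016 for Usp18. Quantile normalisation gave −0.015 for Ifih1, −0.0055 for Irf2 and −0.021 for Rsad2, and median centring −0.022, −0.014 and −0.023 for these and −0.0032 for Mx2. Array weights gave −0.10 for B2m and 0.056 for Oas2, and the covariate −0.00027 for Ifih1. The mean of all probe sets gave −0.32 for Adar and 0.051 for Tap1. The second probe set gave −0.14 for Adar, 0.027 for Ifnar1, 0.093 for Psmb8 and −0.027 for Trim25, and so did leaving out cross-hybridising probe sets for Trim25 (−0.027). With each array left out, the range was −0.090 to 0.15 for Irf2, −0.016 to 0.13 for Irf7, −0.093 to 0.073 for Ifit3, −0.034 to 0.11 for Usp18 and −0.11 to 0.091 for Oas2. It was −0.36 to 0.11 for Oasl2, −0.054 to 0.092 for Rsad2, −0.081 to 0.13 for Ifih1, −0.43 to 0.26 for Ddx58 and −0.043 to 0.17 for Trim25. It was −0.67 to 0.75 for B2m, −0.18 to 0.012 for Tap1 and −0.18 to 1.09 for Ccl2. The causes were not tested. Low values of a probe set bound what its difference can show.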
